A study of Mus musculus with 48 samples.

Results

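IGHJ1, IGHJ2, IGHJ3 and IGHJ4 are the joining (J) genes of the mouse immunoglobulin heavy-chain locus. They were taken here by name, from the J gene call that the deposited files give for each sequence, and they are 4 of the 171 IGHV, IGHD and IGHJ genes called in the series. All 4834214 deposited sequences of the 48 libraries carried a call to 1 of them: 769305 to IGHJ1, 1676872 to IGHJ2, 1159462 to IGHJ3 and 1228575 to IGHJ4. B cell receptor (BCR) heavy-chain repertoires came from the lacrimal gland (LG, the tear gland) and the spleen of the same 24 C57BL/6 (B6) mice. In the NOD-FMT group (n = 10), B6 mice had received antibiotics in the drinking water and then fecal microbiota by gavage, taken from NOD.B10.H2b, a strain used as a model of autoimmune dry eye. The PBS-T group (n = 9) had the same antibiotics and was gavaged with PBS in place of microbiota. The NC group (n = 5) was untreated B6 mice, sequenced as BCR controls.

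An antibody heavy chain is assembled in a developing B cell by joining 1 V, 1 D and 1 J gene, with bases trimmed and added at each junction. The J gene supplies the end of the third complementarity-determining region (HCDR3), which lies at the centre of the antigen-binding site, and all of framework 4, the strand that follows it and opens with a conserved tryptophan. Because the J gene is kept when a B cell changes isotype or mutates, J usage can be followed through naive, class-switched and gland-resident repertoires.

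The germline sequences are shown since they set what each gene can bring to an HCDR3. They are given 5′ to 3′ in the coding sense. Capitals mark the bases before the tryptophan codon, which fall in the HCDR3, and lower case marks framework 4.
IGHJ1: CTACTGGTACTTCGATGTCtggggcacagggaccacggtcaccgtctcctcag
IGHJ2: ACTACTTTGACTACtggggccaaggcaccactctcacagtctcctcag
IGHJ3: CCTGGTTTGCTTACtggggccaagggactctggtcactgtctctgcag
IGHJ4: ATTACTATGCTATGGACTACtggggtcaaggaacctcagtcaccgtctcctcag

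These are the coding segments on the minus strand of chromosome 12 in GRCm38, the build the labels name as mm10. IGHJ1 lies at chr12:113429781-113429833, IGHJ2 at chr12:113429468-113429515, IGHJ3 at chr12:113429085-113429132 and IGHJ4 at chr12:113428514-113428567. IGHJ1 is thus nearest to the D genes and IGHJ4 nearest to the constant genes, with 265, 335 and 517 bases between neighbours. IGHJ1 and IGHJ4 hold 19 and 20 bases before the tryptophan codon, whereas IGHJ2 and IGHJ3 each hold 14. Over the 33 bases from the tryptophan codon to the last whole codon, any 2 of the genes differed at 6 to 9 positions, and no sequence was called to more than 1 J gene. The calls were to allele 3 of IGHJ1 in 99.5% of its sequences, to allele 1 of IGHJ2 in 99.8%, and to allele 1 of IGHJ3 and IGHJ4 in 100%.

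A clonotype was a set of sequences with the same V gene, J gene and HCDR3 amino acids. After dropping any nucleotide sequence that more than 2 mice shared within a tissue, LG libraries held 560 to 17213 clonotypes (median 882.5) and 40105 to 264365 counts, and spleen libraries held 23002 to 593820 clonotypes (median 127904) and 71859 to 2032338 counts. A count is 1 consensus sequence built from a molecular tag. The 95% Wilson interval of a J share, which covers counting error only, was at most ±4.03 percentage points for clonotypes of a LG. The LG of PBS-T mouse 5 stood apart with 17213 clonotypes and lost 39.8% of its counts to the removal step, and the spleen of PBS-T mouse 6 lost 66.6%. This step took more than the one used in the study, and values with no removal are given where they change a call or a size. The LG of NC mouse 2 shared 335 sequences with the spleen of NC mouse 3 and 213 with that of its own mouse, whereas each of the other 23 glands shared 189 to 986 with its own spleen and at most 59 with any other. Of the 24 LG files, 11 (6 NOD-FMT, 4 PBS-T and 1 NC) were marked as merged, and what was merged is not stated. More RNA per cell and more cells cannot be told apart in a share of counts.

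In the spleen, IGHJ2 was the most used J gene and IGHJ1 the least used in every mouse by clonotypes. By the share of clonotypes, IGHJ2 took 34.2% ± 0.94 (SD, n = 24), IGHJ4 26.4% ± 1.22, IGHJ3 24.2% ± 0.66 and IGHJ1 15.2% ± 0.43. The lowest and highest spleen were 32.8% and 36.6% for IGHJ2, 23.6% and 28.3% for IGHJ4, 23.0% and 25.6% for IGHJ3, and 14.5% and 16.2% for IGHJ1. The ranges of IGHJ2 and IGHJ1 met no other gene's range, and IGHJ4 exceeded IGHJ3 in 21 of 24 spleens. By counts, IGHJ3 (23.2% ± 2.70) and IGHJ4 (23.0% ± 3.40) did not differ beyond their spread. IGHJ2 was again highest in 24 of 24 spleens by counts, but IGHJ1 was lowest in 21 of 24.

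The LG kept IGHJ2 as its leading gene by mean share, but its shares varied several times more between mice. LG libraries also held fewer clonotypes (median 882.5 against 127904), and the part of depth in this spread was not tested. IGHJ2 took 34.4% ± 3.81 of LG clonotypes and was the highest of the 4 genes in 22 of 24 mice. IGHJ4 (24.2% ± 3.80) and IGHJ3 (23.5% ± 3.24) did not differ beyond their spread, and IGHJ1 (18.0% ± 3.55) was lowest in 17 of 24 mice. By counts the spread was wider still: IGHJ2 ran from 24.4% to 73.2% of a LG library, IGHJ4 from 3.33% to 50.2%, IGHJ1 from 7.59% to 40.03% and IGHJ3 from 6.18% to 39.5%. By that measure IGHJ2 was highest in 15 of 24 glands and IGHJ1 lowest in 11 of 24.

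**Figure D1:**
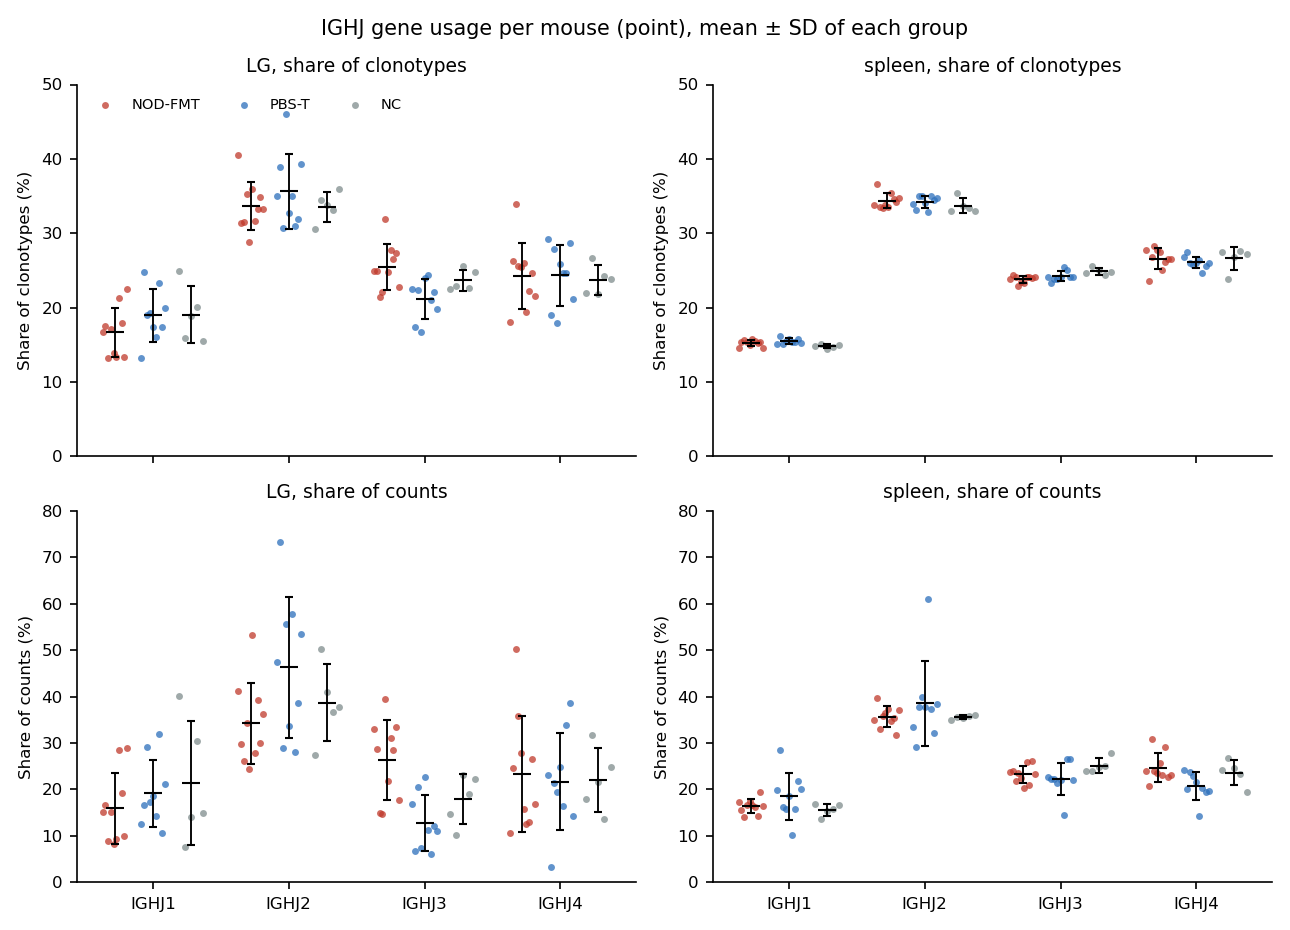
Share of clonotypes (percent, upper panels) and of counts (percent, lower panels) taken by each J gene in the LG and the spleen; each point is 1 mouse and the bars are the group mean ± SD. The 9 PBS-T mice lie low for IGHJ3 counts in the LG (6.18% to 22.8%) against 14.7% to 39.5% in the 10 NOD-FMT mice, while the spleen clonotype shares of the groups lie within a few points of each other.

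The LG comparison of NOD-FMT with PBS-T mice asked whether the transferred microbiota went with a different J usage in the gland. IGHJ3 was the 1 gene that differed, and it was higher in NOD-FMT mice by both measures. By counts, its lowest, median and highest shares were 14.7%, 28.6% and 39.5% in the 10 NOD-FMT glands and 6.18%, 11.2% and 22.8% in the 9 PBS-T glands. The groups overlapped, but all 10 NOD-FMT mice lay above the PBS-T median, 6 of them above every PBS-T mouse, and 6 PBS-T mice lay below every NOD-FMT mouse. The means were 26.3% ± 8.58 and 12.8% ± 6.03, a difference of 13.6 percentage points (p = 0.0017, adjusted p = 0.0400, two-sided exact permutation test with Benjamini-Hochberg adjustment over 48 tests).

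By clonotypes, IGHJ3 had a lowest, median and highest share of 21.5%, 24.9% and 31.9% in NOD-FMT and 16.8%, 22.0% and 24.3% in PBS-T glands. Of the 10 NOD-FMT mice, 7 exceeded every PBS-T mouse. The means of 25.4% ± 3.12 and 21.1% ± 2.69 differed by 4.30 points (p = 0.00396, adjusted p = 0.0475, exact permutation test). The 5 NC glands held 22.5%, 22.9%, 25.6%, 22.7% and 24.7% of clonotypes and 14.6%, 10.3%, 23.2%, 19.1% and 22.3% of counts in IGHJ3. Their means, 23.7% ± 1.402 and 17.9% ± 5.40, lay between those of the gavaged groups, and neither gavaged group differed from NC for IGHJ3 in the LG (adjusted p = 0.343 to 0.578, exact permutation test).

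Both IGHJ3 calls were close to the threshold. With no removal of shared sequences the differences were 17.1 points of counts and 4.43 of clonotypes (adjusted p = 0.0169 and 0.0291, exact permutation test). The call for counts was lost without PBS-T mouse 2, 4 or 7 (differences 12.8, 12.9 and 12.7 points, adjusted p 0.0585, 0.0578 and 0.0622, exact permutation test), and that for clonotypes was lost on leaving out any of 16 mice, with a difference of 3.58 to 4.74 points over all 24 mice left out. Among the 16 were NC mice 1, 3, 4 and 5, which are outside this comparison. Without them the difference stayed at 4.30 points and only the adjustment changed. Within the merged LG files (6 NOD-FMT, 4 PBS-T) the difference was 8.79 points by counts and 1.75 by clonotypes, and within the other files (4 and 5) it was 19.01 and 6.95, neither called within a file class. In the other files, 4 against 5 mice give too few splits for a lone test to pass the adjustment.

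IGHJ2 had the largest difference of the other sign, which did not pass the test. Its share of LG counts was 34.3% ± 8.68 in NOD-FMT and 46.3% ± 15.2 in PBS-T mice (difference -12.1 points, p = 0.0449, adjusted p = 0.311, exact permutation test), with 4 PBS-T mice above every NOD-FMT mouse. IGHJ1 (16.0% against 19.2% of counts) and IGHJ4 (23.4% against 21.7%) had differences of -3.21 and 1.71 points (adjusted p = 0.591 and 0.918, exact permutation test).

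The isotype make-up of the gland varied most among PBS-T mice. IGHA is the constant gene of IgA, which tear glands secrete. It made up 96.7% ± 1.31 of NOD-FMT counts, 75.2% ± 29.0 of PBS-T counts and 95.6% ± 3.93 of NC counts. PBS-T glands ran from 13.9% to 97.1% (median 86.7%) and NOD-FMT glands from 94.6% to 98.7%. The difference between groups was not tested. Among IGHA sequences alone, IGHJ3 still took 26.3% ± 8.64 of counts in NOD-FMT and 13.4% ± 6.57 in PBS-T glands (difference 12.9 points, adjusted p = 0.0459, exact permutation test), and the clonotype difference was 4.63 points (adjusted p = 0.173). This restriction was chosen after the data were seen.

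The extra IGHJ3 counts of NOD-FMT glands came with several V genes, while other V genes had fewer IGHJ3 counts there. The largest contribution came from IGHV6-3, which with IGHJ3 took 3.75% ± 3.26 of counts in NOD-FMT (0.262% to 9.34%), 0.364% ± 0.458 in PBS-T and 0.687% in NC glands. IGHV1-26 with IGHJ3 took 2.17% ± 3.23 in NOD-FMT (highest mouse 10.6%) against 0.381% in PBS-T glands. IGHV1-53 with IGHJ3 took 2.59% ± 2.98 (highest mouse 8.28%) against 0.806%. IGHV1-72 with IGHJ3 averaged 2.90% in NOD-FMT, of which 1 mouse supplied 26.4% of its own library. These V genes were picked after their values were seen. Without the IGHV6 family the IGHJ3 difference was 10.5 points by counts (adjusted p = 0.163) and 3.27 by clonotypes (adjusted p = 0.307, exact permutation test), no longer called.

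Large IGHJ3 clonotypes were counted as a description. IGHJ3 clonotypes with at least 1% of a library's counts numbered 47 in the 10 NOD-FMT glands (1 to 10 per mouse), 14 in the 9 PBS-T glands (0 to 4) and 18 in the 5 NC glands (1 to 6). They held 14.5% ± 9.08, 3.64% ± 4.15 and 6.60% ± 3.28 of counts. For IGHJ2, such clonotypes numbered 75, 72 and 35 and held 19.7%, 31.6% and 22.8% of counts. They numbered 36, 33 and 22 for IGHJ1, and 49, 32 and 19 for IGHJ4. IGHJ3 thus had the fewest of the 4 genes in PBS-T and NC glands, and IGHJ1 the fewest in NOD-FMT glands. Among all LG clonotypes, the IGHJ3 share was 25.4% in NOD-FMT, 21.1% in PBS-T and 23.7% in NC glands. The mean count of an IGHJ3 clonotype was 125 ± 58.4 in NOD-FMT, 42.2 ± 17.7 in PBS-T and 54.1 ± 17.7 in NC glands. The other genes were also highest in NOD-FMT glands, at 108 against 77.1 and 77.5 for IGHJ1, 107 against 67.1 and 67.0 for IGHJ4, and 117 against 114 and 81.0 for IGHJ2. NOD-FMT glands had the most counts, with a median of 144958 kept, against 57709 in PBS-T and 75358 in NC glands, and the part of depth in these mean counts was not tested. With all clonotypes of 1% or more set aside, a step chosen after the data were seen, the IGHJ3 share of the remaining counts was 27.5% ± 2.89 in NOD-FMT and 21.9% ± 1.99 in PBS-T glands (difference 5.63 points, adjusted p = 0.0104, exact permutation test), and the clonotype difference was 4.10 points, not called (adjusted p = 0.0534).

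The leading LG clonotypes of each J gene are shown because a single one could carry most of a library's J share. For each, the HCDR3 is written with the unbroken germline J bases at its end in capitals, so that the length of the J tail can be read. IGHJ1 led with IGHV1-22 in PBS-T mouse 7 (17.3% of counts) and IGHV1-53 in NC mouse 1 (15.02%). IGHJ2 led with IGHV1-9 in PBS-T mouse 2 (29.0%, of which 90.4% was IGHG2B) and IGHV1-53 in PBS-T mouse 6 (23.5%). IGHJ3 led with IGHV1-72 in NOD-FMT mouse 5 (26.3%) and IGHV1-55 in NOD-FMT mouse 1 (8.95%). IGHJ4 led with IGHV5-16 in NOD-FMT mouse 4 (22.4%) and IGHV14-3 in PBS-T mouse 8 (17.2%, of which 99.7% was IGHG2C).
IGHV1-22 and IGHJ1: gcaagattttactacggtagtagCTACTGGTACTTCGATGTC
IGHV1-53 and IGHJ1: gcaaccaactgggacaGGTACTTCGATGTC
IGHV1-9 and IGHJ2: tactacggtagtagCTTTGACTAC
IGHV1-53 and IGHJ2: gcaaagcgtctctacGACTAC
IGHV1-72 and IGHJ3: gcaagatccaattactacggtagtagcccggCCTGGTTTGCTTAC
IGHV1-55 and IGHJ3: gcaagagacaggGCTTAC
IGHV5-16 and IGHJ4: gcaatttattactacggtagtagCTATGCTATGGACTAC
IGHV14-3 and IGHJ4: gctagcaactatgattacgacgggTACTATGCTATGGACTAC

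Their J tails ran from 6 bases, in IGHV1-55 with IGHJ3 and in IGHV1-53 with IGHJ2, to all 14 bases of IGHJ3 in IGHV1-72 and all 19 of IGHJ1 in IGHV1-22. The commonest sequence of each of the 8 clonotypes had 0 V mismatches. Every one was also present in the spleen of its own mouse, at 21 to 958 counts. The IGHG2B and IGHG2C clonotypes were the ones that were not mostly IGHA.

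In the spleen, none of the 8 comparisons of NOD-FMT with PBS-T mice passed the test. IGHJ3 clonotypes took 23.8% ± 0.44 in NOD-FMT and 24.2% ± 0.65 in PBS-T spleens (difference -0.41 points, adjusted p = 0.423, exact permutation test). The nearest to a call was IGHJ4 by counts, at 24.7% ± 3.13 against 20.7% ± 2.96 (difference 4.02 points, p = 0.00629, adjusted p = 0.0604, exact permutation test). All 10 NOD-FMT spleens lay above the PBS-T median of 20.3%. Without PBS-T mouse 6, whose IGHJ4 share of 14.3% was the lowest, the difference was 3.22 points (adjusted p = 0.134). With no removal of shared sequences it was 5.195 points and called (adjusted p = 0.0291, exact permutation test), with PBS-T mouse 6 at 5.04%.

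Against the untreated NC mice, 2 of 32 comparisons passed, both small and both in spleen clonotypes. IGHJ3 took 23.8% ± 0.44 in NOD-FMT and 24.9% ± 0.48 in NC spleens, a difference of -1.07 points (p = 0.00067, adjusted p = 0.0320, exact permutation test), and 9 of 10 NOD-FMT spleens lay below every NC spleen. The NC values were 24.7%, 25.6%, 25.0%, 24.3% and 24.8%. IGHJ1 took 15.5% ± 0.36 in PBS-T and 14.8% ± 0.22 in NC spleens, a difference of 0.70 points (p = 0.0025, adjusted p = 0.0400, exact permutation test), with no overlap: the NC spleens held 14.8%, 15.05%, 14.5%, 14.7% and 14.97% and the PBS-T spleens 15.1% to 16.2%. The IGHJ1 call was lost on leaving out PBS-T mouse 4 or 7 or NC mouse 1, 3, 4 or 5, at differences of 0.61 to 0.74 points. Both comparisons share the NC mice. Without NC mouse 2 the differences were -0.88 and 0.76 points (adjusted p = 0.0480 for each, exact permutation test).

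Comparing the 2 tissues of each mouse, IGHJ1 was the gene whose clonotype share was higher in the gland. IGHJ1 took 18.0% ± 3.55 of LG and 15.2% ± 0.43 of spleen clonotypes, a difference of 2.77 ± 3.605 points that was positive in 19 of 24 mice (p = 0.000919, adjusted p = 0.00735, exact sign-flip permutation test over 8 tests). The excess was 1.42 points in NOD-FMT (higher in 6 of 10), 3.45 in PBS-T (8 of 9) and 4.24 in NC mice (5 of 5). Without NC mouse 2 it was 5.07 points in NC mice (4 of 4) and 2.85 over the other 23 (adjusted p = 0.00895, exact sign-flip permutation test). In the 11 mice with merged LG files it was 1.55 points (adjusted p = 0.898), and in the other 13 it was 3.80 (adjusted p = 0.0410). The IGHJ4 difference was -2.22 ± 4.13 points of clonotypes (adjusted p = 0.0619), which lay near the threshold: it was called without NC mouse 2 (-2.44 points, adjusted p = 0.0381) and also without NOD-FMT mouse 2 or 3 or PBS-T mouse 1, 3 or 8 (-2.40 to -2.63 points, adjusted p = 0.0111 to 0.0467, exact sign-flip permutation test). IGHJ1 counts differed by 1.26 ± 9.59 points (adjusted p = 0.7003, exact sign-flip permutation test).

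The IGHJ3 difference between the tissues had opposite signs in the gavaged groups, and the difference of these differences was tested. In NOD-FMT mice the gland exceeded the spleen by 1.63 ± 3.14 points of clonotypes (higher in 7 of 10), and in PBS-T mice it differed by -3.09 ± 2.35 points (higher in 0 of 9). The difference between these tissue differences was 4.72 points (p = 0.00116, adjusted p = 0.00927, exact permutation of the group labels). By counts the tissue differences were 3.11 ± 8.17 and -9.41 ± 7.24 points, 12.5 points apart (p = 0.00323, adjusted p = 0.0129, exact permutation test). In the 5 NC mice the IGHJ3 clonotype and count differences were -1.20 and -7.23 points, with 1 and 0 mice higher in the gland, and without NC mouse 2 they were -0.80 and -5.60. Both calls held on leaving out each of the 24 mice in turn, of which the 5 NC mice do not enter these tests. Neither was made within the merged or within the other files alone (clonotypes 2.47 and 7.04 points, counts 7.49 and 17.8 points). These tests are not separate from the LG comparison, as they use the same LG shares. For IGHJ3 clonotypes the spleens of the gavaged groups differed by -0.41 points and their glands by 4.30. Adjustment here was over fewer tests than in the LG comparison. By counts the unadjusted p was higher than in the LG (0.00323 against 0.0017, exact permutation tests), but the adjusted p was lower (0.0129 against 0.0400). By clonotypes the unadjusted p was lower (0.00116 against 0.00396).

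**Figure D2:**
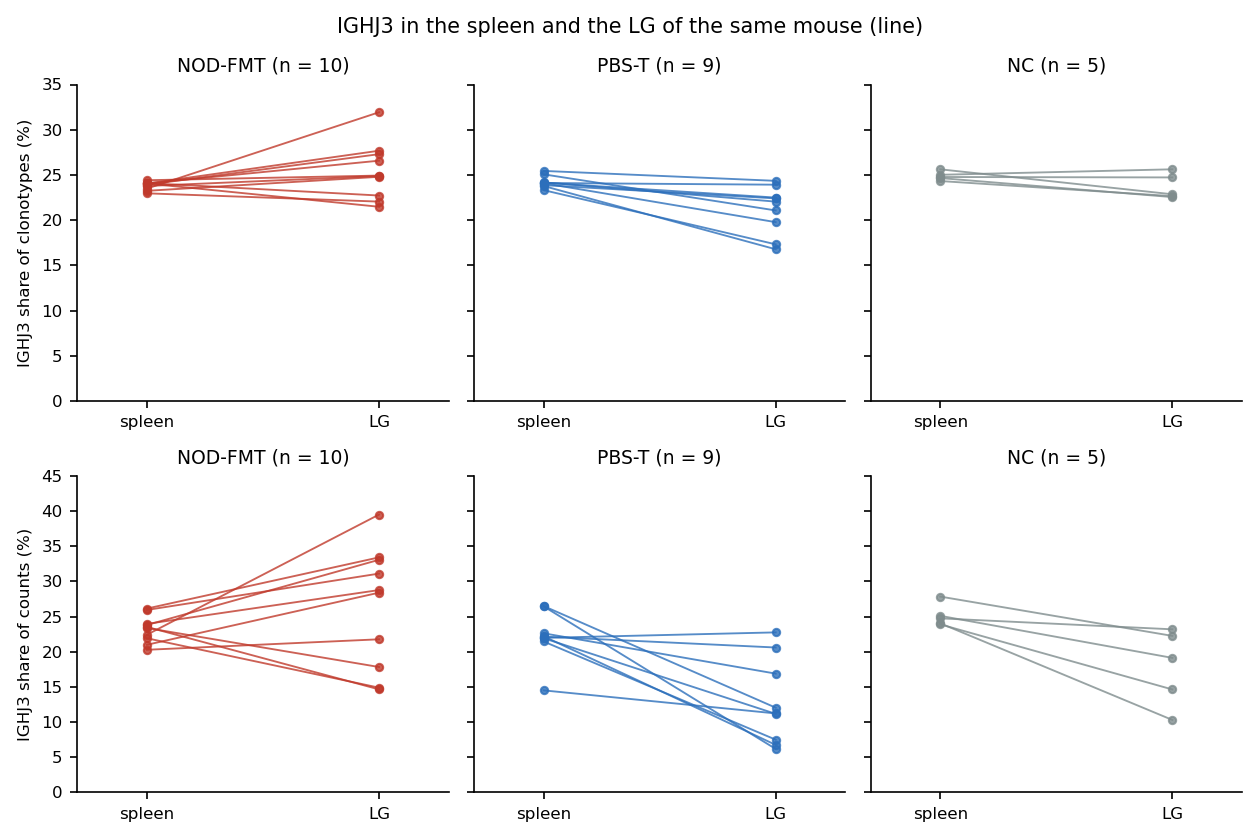
IGHJ3 share (percent) of clonotypes and of counts in the spleen and the LG of each mouse, 1 line per mouse, in panels by group. In NOD-FMT mice 7 of 10 lines rise from spleen to LG by clonotypes, whereas 0 of 9 rise in PBS-T mice and 1 of 5 in NC mice.

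Within IGHA, no J gene passed the test between the tissues over all 24 mice. LG minus spleen IGHA clonotype shares were 0.58 ± 3.35 points for IGHJ1, -0.12 ± 4.55 for IGHJ2, -0.08 ± 3.82 for IGHJ3 and -0.38 ± 3.28 for IGHJ4, with 0 of 4 called (adjusted p = 0.923 for each, exact sign-flip permutation test) and 0 of 4 at an unadjusted p under 0.05. For all 4 genes these means pool NOD-FMT and PBS-T values of opposite sign. IGHJ1 took 17.03% of LG and 15.95% of spleen IGHA clonotypes in NOD-FMT mice, and 17.97% and 18.10% in PBS-T mice. For IGHJ4 the shares were 23.78% and 24.49% in NOD-FMT and 23.31% and 23.26% in PBS-T mice. IGHJ3 took 25.1% of LG and 23.3% of spleen IGHA clonotypes in NOD-FMT mice, and 20.5% and 22.3% in PBS-T mice, and for IGHJ2 the shares were 34.05% and 36.3% in NOD-FMT and 38.2% and 36.3% in PBS-T mice. Whether the LG minus spleen difference itself differed between the groups was not tested within IGHA.

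J usage differed between isotypes of the same spleen. IGHM marks naive and IgM memory B cells, IGHD mostly naive cells, and the IGHG genes and IGHA mark class-switched cells. Of 24 comparisons of an isotype with IGHM, 19 passed the test by clonotypes, and 7 by shares of counts. IGHE had too few clonotypes to enter.

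The largest difference by clonotypes was the low use of IGHJ3 in IGHG3, an IgG subclass typical of responses to polysaccharides. IGHJ3 took 14.4% ± 3.61 of IGHG3 clonotypes and 24.5% ± 0.74 of IGHM clonotypes, a difference of -10.1 ± 3.65 points that was negative in 23 of 24 mice (adjusted p = 1.91e-06, exact sign-flip permutation test). The IGHG3 values ran from 9.59% to 18.5% in 23 mice, below the IGHM range of 22.9% to 25.9%. NC mouse 5 was the exception at 26.8%. The group means were 14.5% in NOD-FMT, 13.0% in PBS-T and 16.7% in NC mice. The lower IGHJ3 share was found in clonotypes of the IGHV1 family (23 of 24 mice) and of the other families (24 of 24), and in clonotypes with 0 V mismatches (12.1% against 24.6%, lower in 24 of 24) and with 1 or more (15.7% against 24.03%, lower in 23 of 24). It measured -8.65 points among clonotypes of 2 or more counts and -9.67 by counts, called in both. IGHG3 libraries were small, with 134 to 4204 clonotypes.

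Which J genes were higher in IGHG3 depended on the measure. IGHJ1 was 3.29 points and IGHJ2 4.83 points above IGHM by clonotypes (adjusted p = 0.000378 for each, exact sign-flip permutation test), but both reversed by counts (-0.11 and -1.48 points, not called), where IGHJ4 was 11.3 points higher (adjusted p = 0.0254). IGHJ1 took 19.9% of IGHG3 clonotypes in NOD-FMT, 19.8% in PBS-T and 15.9% in NC mice, against 15.8%, 16.0% and 15.2% of IGHM clonotypes. This difference between groups was not tested.

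IGHD used IGHJ1 less than IGHM did in every mouse. IGHJ1 took 12.3% ± 0.57 of IGHD and 15.7% ± 0.54 of IGHM clonotypes, a difference of -3.41 ± 0.68 points, and the IGHD range of 10.96% to 13.4% did not reach the lowest IGHM value of 14.8%. This was the smallest p that the sign flips can give (p = 1.19e-07, adjusted p = 1.43e-06, exact sign-flip permutation test). The share was lower in 24 of 24 mice also within the IGHV1 family, within the other families, and within clonotypes with and without V mismatches. It was -2.71 points among clonotypes of 2 or more counts and -5.61 by counts, called in both. IGHJ2 was 3.93 ± 1.13 points higher in IGHD than in IGHM in 24 of 24 mice (adjusted p = 1.43e-06), but 0.49 points higher by counts, which was not called.

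In the other switched isotypes IGHJ1 clonotype shares were higher than in IGHM. IGHG1 had 20.0% ± 5.36 (4.30 points higher, 20 of 24 mice; 2.07 by counts, not called), IGHG2B 17.8% ± 1.87 (2.07 points), IGHG2C 17.6% ± 2.96 (1.91 points) and IGHA 17.3% ± 1.99 (1.52 points), with adjusted p between 0.000188 and 0.00728 (exact sign-flip permutation test). The IGHG1 excess was uneven between the groups, with IGHJ1 at 17.8% ± 3.98 of IGHG1 clonotypes in NOD-FMT, 19.9% ± 1.299 in PBS-T and 24.8% ± 9.195 in NC mice, against 15.8%, 16.0% and 15.2% of IGHM clonotypes. The 4 mice with a lower share in IGHG1 than in IGHM were NOD-FMT mice 3, 5, 7 and 8, and the highest shares were those of NC mouse 5 (37.5%) and NC mouse 4 (31.1%). IGHJ1 was also close to its IGHM share in IGHA and IGHG2C of NOD-FMT mice (16.0% ± 1.87 and 16.2% ± 1.54), with 18.1% and 18.4% in PBS-T and 18.3% and 19.1% in NC mice. In IGHG2B the IGHJ1 share was 16.8% ± 1.48 in NOD-FMT, 18.9% ± 1.39 in PBS-T and 17.8% ± 2.38 in NC mice. These differences between groups were not tested. By counts the IGHG2B, IGHG2C and IGHA differences turned to -0.69, -0.31 and -3.73 points. IGHJ3 differed from IGHM by -2.67 points in IGHG2B, -2.59 in IGHG2C and -1.28 in IGHA (adjusted p = 0.000368, 0.00153 and 0.0223), and for IGHG2C and IGHA it was 0.06 and 1.21 points higher by counts.

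**Figure D3:**
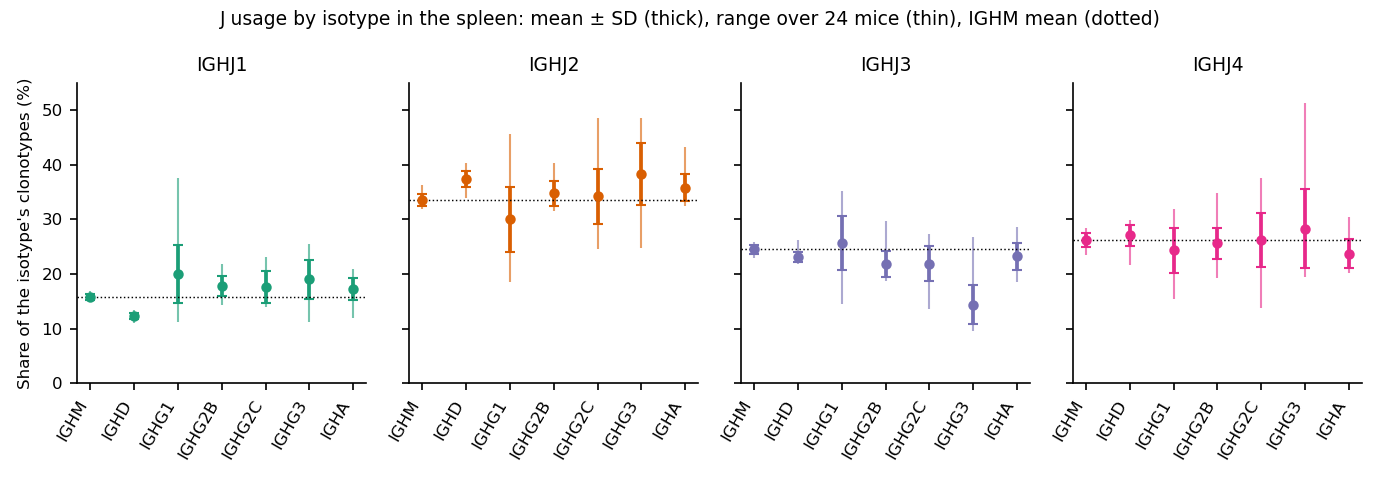
Share of spleen clonotypes (percent) taken by each J gene within each isotype, mean ± SD over mice with the lowest and highest mouse, and the IGHM mean as a dotted line. IGHJ3 in IGHG3 (14.4%) lies farthest from its IGHM line (24.5%), and IGHJ1 in IGHD (12.3%) lies below its line (15.7%).

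IGHJ2 and IGHJ4 shares depended on how often a clonotype had been sampled. In the spleen, clonotypes seen with 1 count were 33.7% ± 0.97 IGHJ2 and 26.9% ± 1.27 IGHJ4, whereas those with 2 or more counts were 37.0% ± 0.97 IGHJ2 and 23.3% ± 1.08 IGHJ4. Within IGHM alone the same shares were 32.8% and 37.6% for IGHJ2 and 26.9% and 22.7% for IGHJ4. IGHJ1 (15.8% and 15.5%) and IGHJ3 (24.5% and 24.2%) moved little in IGHM. Clonotypes with 2 or more counts also had shorter HCDR3s: 9.97 against 10.6 residues for IGHJ2 in IGHM and 11.8 against 12.4 for IGHJ4. With clonotypes of 2 or more counts only, the IGHJ2 and IGHJ4 differences of IGHG2B, IGHG2C and IGHA from IGHM changed sign: IGHJ2 then differed by -2.18, -2.88 and -2.08 points, against 1.28, 0.71 and 2.29 over all clonotypes, and IGHJ4 by 1.91, 2.66 and 0.77, against -0.68, -0.02 and -2.53.

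Clonotypes shared between mice also differed in J usage from those of 1 mouse. Of the 2963967 clonotypes found in 1 spleen, 33.4% used IGHJ2 and 27.2% IGHJ4, and of the 627 clonotypes found in 12 to 24 spleens, 41.3% used IGHJ2 and 18.2% IGHJ4. The IGHJ3 share was 24.1% and 26.2%, and the IGHJ1 share 15.3% and 14.4%. Mean HCDR3 length in the same 2 classes was 10.97 and 7.44 residues for IGHJ2, and 12.7 and 9.63 for IGHJ4. Nucleotide sequences that more than 2 mice shared had been dropped beforehand. Clonotypes of many spleens were therefore those found through differing nucleotide sequences, without the most shared sequences. Clonotypes are not replicates, and these shares are given without a test.

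Somatic hypermutation was measured as mismatches to the germline V gene, so that 0 mismatches marks unmutated sequences. A clonotype with sequences in more than 1 mismatch class was counted in each of them, so the classes overlap. In the spleen all 4 genes differed between mutated and unmutated sequences by clonotypes, though not by counts. IGHJ4 took 24.7% ± 1.08 of mutated and 26.7% ± 1.23 of unmutated clonotypes (-1.96 points, lower in 23 of 24 mice, adjusted p = 1.43e-06, exact sign-flip permutation test). IGHJ1 was 1.15 points higher (22 of 24 mice), IGHJ2 1.32 points higher (22 of 24) and the IGHJ3 difference was -0.52 points (lower in 22 of 24). Within IGHM the IGHJ4 difference was -2.28 points, in 24 of 24 mice. Among clonotypes of 2 or more counts IGHJ1 was 2.18 points higher (called), IGHJ2 reversed to -1.36, and IGHJ4 shrank to -0.30, which was not called (adjusted p = 0.228).

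By the number of V mismatches, the IGHJ1 share of spleen clonotypes was 15.03% at 0 mismatches, 17.5% ± 1.67 at 2, 17.3% at 3 to 5, 16.8% at 6 to 10 and 15.6% ± 2.12 above 10. The IGHJ4 share was 26.7% at 0 and 22.6% ± 1.88 above 10. In the LG 1 of 4 genes differed: IGHJ2 took 35.6% ± 4.53 of mutated and 33.03% ± 3.87 of unmutated clonotypes (2.57 points, higher in 20 of 24 mice, adjusted p = 0.00397, exact sign-flip permutation test), and 0.98 points more among clonotypes of 2 or more counts, not called. With no removal of shared sequences IGHJ3 was also called in the LG, at -1.53 points (adjusted p = 0.0195). Of the 12 tests, in the LG, the spleen and spleen IGHM, 9 passed by clonotypes and 1 by shares of counts, IGHJ1 in IGHM (3.40 points higher, adjusted p = 0.0335, exact sign-flip permutation test). By counts none of the 4 spleen differences was called and that of IGHJ2 reversed, to -0.21 points and to -0.90 in IGHM.

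Framework 4 carried mismatches to the germline J gene mainly where the V gene did too. In spleen IGHM sequences of 5 or more counts with 0 V mismatches, 0.030% of IGHJ1, 0.026% of IGHJ2, 0.015% of IGHJ3 and 0.007% of IGHJ4 framework 4 bases were mismatched. With 3 or more V mismatches, the values were 0.412% ± 0.173, 0.492% ± 0.173, 0.471% ± 0.182 and 0.440% ± 0.177, so that the 4 genes did not differ beyond the spread between mice. LG IGHA sequences gave 0.030% to 0.043% and 0.288% to 0.486%.

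The commonest mismatch positions are counted from 1 at the first base of the tryptophan codon, and most mismatches lay elsewhere. In mutated spleen sequences, position 9 was the commonest in IGHJ3 (3.04% of sequences) and IGHJ4 (2.73%) and second in IGHJ2 (2.48%), where position 16 led at 3.02%. In IGHJ1, position 5 led at 1.77% (14.2% of its mismatches), and position 5 was also the commonest in unmutated IGHM sequences of that gene at 0.394%, in which it held 44.8% of all framework 4 mismatches. Minor alleles of IGHJ1 were called in under 1% of its sequences, at 0.414% and 0.082%.

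HCDR3 length differed between the J genes, and was greater with the pair that carries more germline bases before the tryptophan codon. In the spleen, mean length was 12.8 ± 0.14 residues with IGHJ1, 12.4 ± 0.17 with IGHJ4, 10.9 ± 0.17 with IGHJ3 and 10.6 ± 0.16 with IGHJ2 (n = 24). Every pair differed in every spleen, from 0.31 residues between IGHJ3 and IGHJ2 to 2.16 between IGHJ1 and IGHJ2 (adjusted p = 1.43e-07 for each pair, the smallest p the sign flips can give being 1.19e-07, exact sign-flip permutation test). Weighted by counts, IGHJ3 and IGHJ2 were 0.14 residues apart and not called (adjusted p = 0.268), and the other 5 pairs were called. In the LG the means were 12.8 ± 0.28, 12.6 ± 0.37, 11.1 ± 0.50 and 10.6 ± 0.39 in the same order, and 5 of 6 pairs passed. IGHJ1 and IGHJ4 were 0.15 ± 0.44 residues apart there (adjusted p = 0.104).

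Short and long HCDR3s were divided accordingly. Those of 7 or fewer residues made up 11.9% ± 1.398 of IGHJ2 and 10.4% ± 1.33 of IGHJ3 spleen clonotypes, but 2.52% ± 0.37 of IGHJ1 and 3.64% ± 0.55 of IGHJ4. Those of 17 or more residues made up 5.55% ± 0.71 of IGHJ1 and 5.36% ± 0.70 of IGHJ4, and 1.04% ± 0.17 and 1.00% ± 0.18 of IGHJ2 and IGHJ3. No J gene's mean length differed between NOD-FMT and PBS-T mice in either tissue (0 of 8 called and 0 at an unadjusted p under 0.05). The largest difference was -0.31 residues for IGHJ4 in the LG (12.4 ± 0.36 against 12.7 ± 0.36, p = 0.0781, adjusted p = 0.62, exact permutation test).

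Counting the unbroken germline bases at the end of unmutated HCDR3s separated the part given by the J gene from the rest. In the spleen, IGHJ1 kept 15.3 of its 19 bases, IGHJ4 15.1 of 20, IGHJ3 10.5 of 14 and IGHJ2 9.73 of 14. The losses were 3.65, 4.89, 3.49 and 4.27 bases. The rest of the HCDR3, from the V gene, the D gene and added bases, was 22.1 to 23.0 bases for all 4 genes. The whole J tail was kept in 27.6% ± 1.07 of IGHJ3, 24.1% ± 1.01 of IGHJ2, 16.9% ± 0.60 of IGHJ1 and 13.5% ± 0.80 of IGHJ4 clonotypes. A base matching by chance cannot be told from a kept one.

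**Figure D4:**
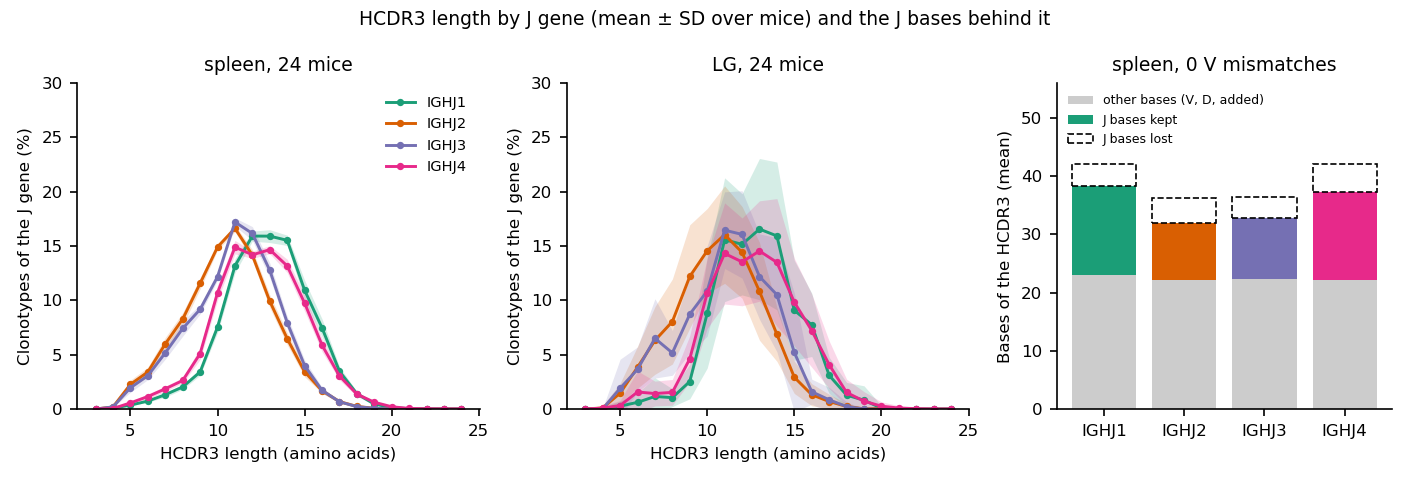
Distribution of HCDR3 length (amino acids) per J gene in the spleen and the LG as the mean percent of a J gene's clonotypes over 24 mice, and stacked bars of the mean number of HCDR3 bases from outside the J gene, kept J bases and lost J bases in unmutated spleen clonotypes. IGHJ1 and IGHJ4 lie to the right of IGHJ2 and IGHJ3, and the bars differ in kept J bases (9.73 to 15.3) rather than in the others (22.1 to 23.0).

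The last residues of the HCDR3 went with the J gene. In the spleen, 95.6% ± 0.31 of IGHJ1 clonotypes ended in FDV, 93.8% ± 0.79 of IGHJ4 in MDY, 79.8% ± 1.49 of IGHJ3 in FAY and 63.6% ± 1.78 of IGHJ2 in FDY. In the LG these were 91.8%, 88.9%, 74.6% and 61.6%. Tyrosine, a residue common in antigen contacts, made up 22.3% ± 0.21 of HCDR3 residues with IGHJ4 and 21.7% ± 0.16 with IGHJ2, against 17.8% ± 0.16 with IGHJ3 and 16.7% ± 0.17 with IGHJ1.

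The pairing of J genes with V families departed from the product of their shares. For each spleen the observed share of clonotypes with a V family and J gene was divided by the product of the 2 shares, on a log2 scale. Of 40 pairs of 10 V families and the 4 J genes, 27 were called (67.5% of pairs, adjusted p under 0.05 and a mean log2 ratio of at least 0.1 in size), so that a call was the rule and size is what separates the pairs. In all, 15 pairs reached 0.2 in size, and each had the same sign in 24 of 24 spleens (adjusted p = 1.91e-07, exact sign-flip permutation test).

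IGHJ1 was found more often than expected with IGHV7 (log2 ratio 0.49 ± 0.08), IGHV3 (0.39 ± 0.06) and IGHV8 (0.38 ± 0.09), and less often with IGHV14 (-0.45 ± 0.07) and IGHV6 (-0.37 ± 0.13). IGHJ3 had nearly the reverse set: it was high with IGHV6 (0.39 ± 0.05) and IGHV14 (0.29 ± 0.05) and low with IGHV7 (-0.43 ± 0.10) and IGHV8 (-0.24 ± 0.08). IGHJ4 was high with IGHV2 (0.62 ± 0.06) and IGHV10 (0.50 ± 0.06), and low with IGHV6 (-0.50 ± 0.12) and IGHV14 (-0.33 ± 0.04). IGHJ2 was low with IGHV2 (-0.88 ± 0.12) and IGHV10 (-0.59 ± 0.06) and had no high pair of that size. IGHV1, the largest family with 61.7% ± 2.28 of clonotypes, lay within 0.1 of 0 for all 4 genes. No pair differed between NOD-FMT and PBS-T spleens (0 of 40 called, 0% of pairs, 5 of 40 at an unadjusted p under 0.05, exact permutation test).

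Pooled LG clonotypes, without the outlying PBS-T mouse 5, are given as a description for 4 pairs picked after their values were seen. IGHV6 with IGHJ3 had a log2 ratio of 0.96 (396 of 850 clonotypes), IGHV2 with IGHJ2 -0.94 (229 of 1282), IGHV2 with IGHJ4 0.59 and IGHV8 with IGHJ1 0.70, each of the sign it had in the spleen.

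Of the single V genes, the 2 highest and 2 lowest ratios for each J gene are given, a choice that by itself picks values beyond those of most families. For IGHJ1 the highest ratios were those of IGHV3-8 (0.99 ± 0.13) and IGHV5-16 (0.74 ± 0.13), and the lowest those of IGHV14-4 (-0.67 ± 0.15) and IGHV14-2 (-0.58 ± 0.13). IGHV3-8 and IGHV5-16 were in turn the lowest for IGHJ3 (-1.50 ± 0.15 and -1.11 ± 0.16), which was high with IGHV2-9 (0.72 ± 0.08) and IGHV14-4 (0.59 ± 0.07). For IGHJ2 the lowest was IGHV2-9 (-3.01 ± 0.27), then IGHV2-5 (-1.07 ± 0.13), and the highest were IGHV6-3 (0.28 ± 0.04) and IGHV14-2 (0.27 ± 0.05). IGHJ4 was high with IGHV2-5 (0.83 ± 0.06) and IGHV2-9 (0.72 ± 0.07) and low with IGHV6-3 (-0.64 ± 0.12) and IGHV14-4 (-0.60 ± 0.10). Calls between V genes of near-identical sequence are uncertain, and these single-gene ratios carry no test.

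The V position in the locus went with IGHJ2 pairing in part. Across 56 V genes, Spearman's rho between distance from the J genes and the log2 ratio was 0.46 for IGHJ2, -0.01 for IGHJ1, -0.20 for IGHJ3 and -0.25 for IGHJ4. These are values across genes, which are not independent. The V genes whose share of clonotypes followed each J gene most closely over 24 spleens were IGHV1-22 (rho 0.43) and IGHV1-42 (0.31) for IGHJ1, IGHV1-64 (0.68) and IGHV1-7 (0.65) for IGHJ2, IGHV1-54 (0.73) and IGHV1-62-2 (0.61) for IGHJ3, and IGHV8-12 (0.75) and IGHV9-3 (0.69) for IGHJ4, as a description of libraries that differ in depth. Their log2 ratios with that J gene, in the same order, were -0.02, -0.004, 0.18, 0.17, -0.15, 0.19, 0.31 and -0.01. A share that follows a J gene thus need not be a preferred pairing.

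D genes, which J genes join first, were called in unmutated IGHM clonotypes of the spleen. IGHD1-1 was the commonest and was joined to IGHJ1 most: it was called in 47.95% ± 1.34 of IGHJ1 clonotypes, 34.8% ± 1.32 of IGHJ2, 29.8% ± 1.04 of IGHJ4 and 25.4% ± 0.94 of IGHJ3. IGHD2-4 was commoner with IGHJ3 (13.5%) than with IGHJ1 (6.87%), IGHJ2 (7.05%) or IGHJ4 (8.96%). IGHD4-1, the D gene nearest to the J genes, was called in 10.6% ± 0.60 of IGHJ2 and 6.40% ± 0.59 of IGHJ1 clonotypes. IGHD3-2 was called in 0.695% ± 0.07 of IGHJ1 clonotypes against 4.14% to 6.13% with the other 3 genes, a log2 ratio of -2.59. The sign of each of these ratios was the same in 24 of 24 spleens for IGHJ1 and IGHJ3, except that of IGHD4-1 with IGHJ3, above 0 in 23. These D genes were named after their values were seen. D calls rest on short matches beside the J tail, and no D gene was given for 12.1% of clonotypes.

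**Figure D5:**
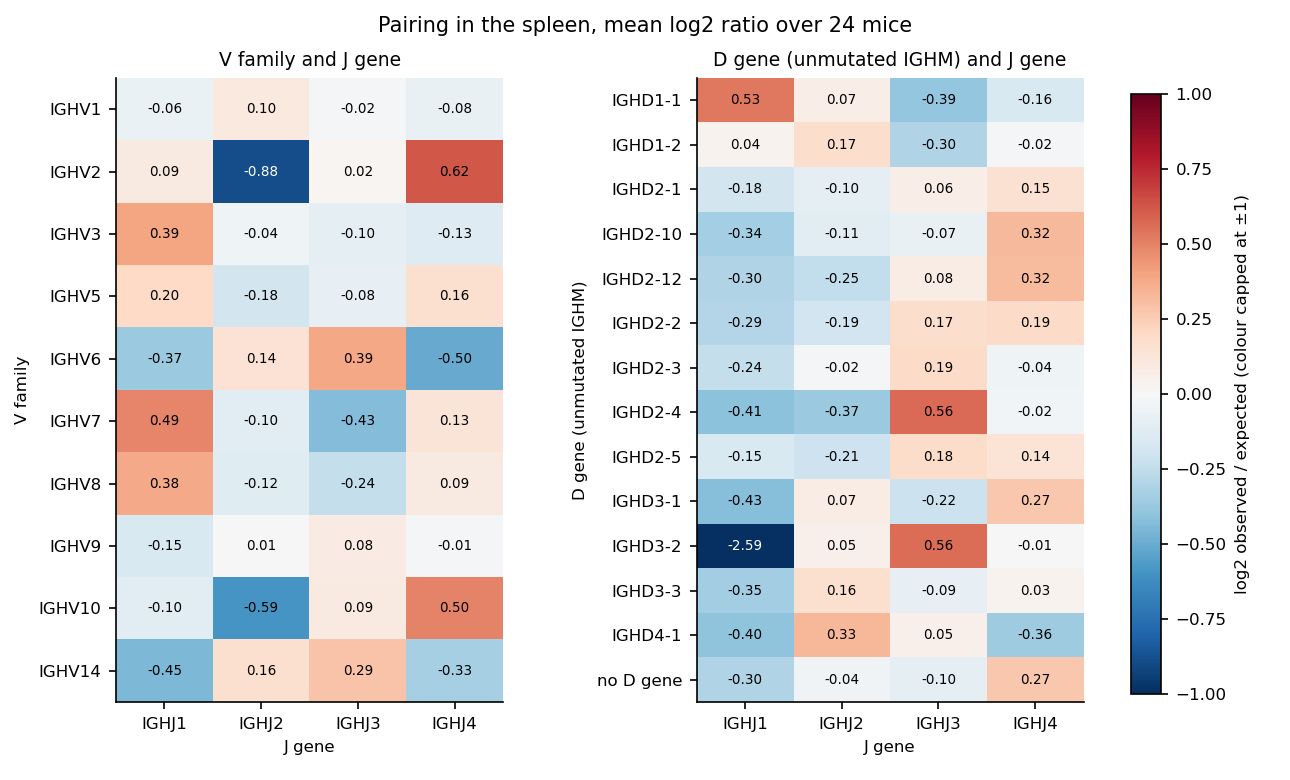
Mean log2 ratio of observed to expected clonotype share over 24 spleens for V families (left) and D genes (right, unmutated IGHM clonotypes) with each J gene; red is above and blue below expectation, with the colour scale ending at 1 and -1. IGHV2 with IGHJ2 (-0.88) and IGHD3-2 with IGHJ1 (-2.59) are the lowest cells, and IGHV2 with IGHJ4 (0.62) and IGHD1-1 with IGHJ1 (0.53) are among the highest.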

How the data were processed

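BCR heavy-chain libraries of LG and spleen RNA were analysed. Peripheral blood and 16S data were not analysed here. The authors reverse-transcribed RNA with constant-region primers carrying molecular tags, amplified it with V gene primers, merged and quality-filtered the reads, built consensus sequences per tag without singletons, and called genes with IgBLAST against a germline release not given in the sources used here. The deposited files give, per sequence, a duplicate count (whole consensus sequences, not normalized), and the authors' frequency, a fraction of the library total that was used only as a check. They also give V mismatches. The labels name build mm10. J coordinates and sequences were taken from the GENCODE transcripts and annotation of GRCm38.

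Any nucleotide sequence that more than 2 mice shared within a tissue was dropped (0.143% to 39.8% of LG and 4.94% to 66.6% of spleen counts per library). The study states a rule of this kind, but its own step took a much smaller part of the counts than this one did, and what else it did is not given in the sources used here, so the sequences kept are not the study's. All J share comparisons were therefore also run with no removal. Clonotypes were defined, as in the study, by V gene, J gene and HCDR3 amino acids. A class of sequences entered with at least 50 clonotypes per mouse, and a V family with at least 100 in every spleen. Framework 4 was read in sequences of 5 or more counts and at most 5 mismatches, from mice with 20 such sequences. The mouse was the replicate. Between groups, an exact two-sided permutation test ran over all 92378, 3003 or 2002 splits into groups, and values of the same mouse were compared by exact sign flips (16777216 patterns), with Benjamini-Hochberg adjustment over 48 between-group, 8 tissue, 8 tissue-by-group, 24 isotype, 12 mutation, 12 length and 40 pairing tests. A result was called at an adjusted p under 0.05. V families were named at a mean log2 ratio of at least 0.2 in size, up to 3 highest and lowest per J gene, V genes (at least 0.5% of clonotypes) as the 2 highest, 2 lowest and 2 closest in share, and clonotypes as the 2 with the highest share of a LG library per J gene. The members, lists and tests were chosen with earlier results of these data known. The tests were checked on simulated data. Intervals are Wilson 95% intervals and cover counting error only, and 3 counts amount to 0.000148% to 0.00748% of a library.

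LG and spleen of the same number in a group were treated as the same mouse. In 23 of 24 mice the LG shared the most sequences with its own spleen (189 to 986 own, at most 59 with any other). The LG of NC mouse 2 shared more with the spleen of NC mouse 3 (335) than with its own (213), and results resting on it are also given without that mouse. Alternatives changed the removal step, the count minimum, the clonotype definition, depth, scale, mice, file class, pairing, the mutation cutoff, weighting by counts and the V families. Python 3.11.15, NumPy 2.4.6, pandas 2.3.3, SciPy 1.17.1 and Matplotlib 3.10.9 were used.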

Additional observations from a re-analysis of the deposited data

Results flagged for a closer look

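Of 48 groups of libraries examined for a sample far from the others, 6 held one, where chance gives about 1 in 20. The spleen of PBS-T mouse 6 accounted for 3 of them: by counts it held 61.1% IGHJ2 (29.2% to 39.8% in the other PBS-T spleens), 14.5% IGHJ3 (21.5% to 26.5%) and 14.3% IGHJ4 (19.5% to 24.1%). This library lost 66.6% of its counts to the removal of shared sequences, and with no removal its shares lay farther out, at 86.0% IGHJ2, 5.10% IGHJ3 and 5.04% IGHJ4. The spleen of NC mouse 2, whose LG shared more sequences with the spleen of NC mouse 3 than with it and which had the lowest deposited count of the spleens at 86717, held 35.5% IGHJ2 clonotypes (33.01% to 33.7% in the other NC spleens) and 23.9% IGHJ4 clonotypes (26.8% to 27.6%). The LG of NOD-FMT mouse 3 held 33.9% IGHJ4 clonotypes (18.0% to 26.2% in the other NOD-FMT glands).

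A pair of results differed between the groups under the same contrast, and both rest on the LG shares already compared between these groups. The LG minus spleen difference of IGHJ3 was 4.72 points of clonotypes (adjusted p = 0.00927) and 12.5 points of counts (adjusted p = 0.0129) higher in NOD-FMT than in PBS-T mice, by exact permutation of the group labels with Benjamini-Hochberg adjustment.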

How the results depend on the processing

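The NOD-FMT minus PBS-T difference of IGHJ3 in the LG kept its sign under every alternative run, and was 1.75 to 6.95 points of clonotypes and 5.63 to 19.01 of counts on the scale of shares. The count of J shares called there (2 of 8) was 1 with clonotypes of 2 or more counts, 1 thinned to equal counts (clonotype shares only), 0 in merged files only and 0 in the others, and, in alternatives chosen after seeing the data, 0 without IGHV6, 1 in IGHA only and 1 without clonotypes of 1% or more. The tissue-by-group calls (2) numbered 3 with sequences of 2 or more mice removed (IGHJ2 by counts added, -13.4 points, adjusted p = 0.0418), 1 when thinned (clonotype shares only), 0 in merged and 0 in the other files. In the other files the groups were too small for a lone test between them to pass. For spleens (0 called) 1 was called without the removal step, and for treated against NC mice (2) 1 with clonotypes of 2 or more counts, 1 with HCDR3 nucleotides and 1 thinned. LG minus spleen (1) gave 2 with clonotypes of 2 or more counts, 2 with HCDR3 nucleotides, 2 with centred log2 ratios, 0 in merged files, 0 in NOD-FMT mice only, 2 in PBS-T only and 0 in NC only, the last being too few mice to pass. Leaving out 1 mouse gave 0 to 2 calls for LG groups (0 without PBS-T mouse 2, 4 or 7), 0 to 1 for spleen groups (1, IGHJ4 by counts, without NOD-FMT mouse 2 or PBS-T mouse 1 or 3), 1 to 2 against NC, 1 to 2 for LG minus spleen and 2 to 2 for its group difference. V pair calls (27) were 46 with families of 20 or more clonotypes, where more pairs were tested.

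Mutation calls (9) fell to 1 and isotype calls (19) to 7 by shares of counts. Signs that reversed with clonotypes of 2 or more counts were, in points, LG minus spleen IGHJ2 -2.35, IGHG1 IGHJ4 0.77, IGHG2B IGHJ2 -2.18 and IGHJ4 1.91, IGHG2C IGHJ2 -2.88 and IGHJ4 2.66, IGHA IGHJ2 -2.08 and IGHJ4 0.77, and mutated IGHJ2 -1.36 in the spleen and -0.59 in IGHM. By counts they were mutated IGHJ2 -0.21 and -0.90 in IGHM, IGHG1 IGHJ4 2.35, IGHG2B IGHJ1 -0.69 and IGHJ2 -1.12, IGHG2C IGHJ1 -0.31, IGHJ2 -6.67 and IGHJ3 0.057, IGHG3 IGHJ1 -0.11 and IGHJ2 -1.48, and IGHA IGHJ1 -3.73, IGHJ3 1.21 and IGHJ4 2.09. The cause was not tested. Weighting HCDR3 length by counts left IGHJ2 and IGHJ3 0.14 residues apart in the spleen, not called. Without the LG of PBS-T mouse 5 and the spleen of PBS-T mouse 6 no isotype, mutation or length call changed. No sequence carried more than 1 J gene, so dropping such calls changed nothing.

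NOD-FMT and PBS-T replicate numbers share only a number: same-numbered spleens had V usage deviations with r from -0.40 to 0.65, over 0.1 in 5 of 9, and 2 of 9 correlated best with their own number. With the replicate block the LG gave 3 calls (IGHJ2 by counts added) and the spleen 1 (IGHJ4 by counts), and without the block between the tissues of a mouse LG minus spleen gave 2. LG depth limits a clonotype share to about ±4.03 points in the smallest library.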
